A study of Mus musculus with 4 samples.

Results

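Cell cycle and proliferation genes were followed in pancreatic tissue taken beside Panc02 tumours, Panc02 being a mouse pancreatic ductal adenocarcinoma line. The set held 40 genes, chosen by symbol for roles in S-phase replication (15 genes) and in mitosis (25 genes), out of 55401 gene identifiers in the count table, and each of the 40 symbols matched 1 identifier. Poly(A) RNA was sequenced from 2 libraries of CRFR1-KO mice, labelled as a conditional knockout of the corticotropin-releasing factor receptor CRFR1, and from 2 libraries of wild-type (WT) mice. Every mouse carried a pancreatic tumour. The series title places the receptor in mast cells, but the labels used here name no Cre driver, strain, sex or age, and do not say whether each library came from a separate animal. The p-values therefore reflect no more than the spread among these 4 libraries, part of which could be technical.

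Dividing cells copy their DNA in S phase and separate the copies in mitosis, and the genes for both steps are switched on in waves. Around the G1/S transition, E2F factors released from retinoblastoma proteins turn on the genes for the replication helicase, the sliding clamp and the enzymes that make nucleotides. Later, B-MYB and FOXM1 work with the MuvB complex to turn on cyclin B, the mitotic kinases and the spindle proteins, while p53 and p21 hold both sets down through the retinoblastoma family and the DREAM complex. In the adult exocrine pancreas acinar cells rarely divide, so bulk tissue is known to hold little mitotic RNA, and activated stroma, infiltrating leukocytes and tumour cells can each add to it.

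Sequence elements of these waves were searched for in the promoters of the set, and 4 promoters are shown: Pcna and Mki67, the S-phase and mitosis members with the highest mean CPM, and Mcm2 and Cenpf, which had the highest and the lowest fitted fold change among the leading members of the role groups. Each is the sense strand from 250 bases before to 50 bases after the gene start, in the RefSeq table for GRCm38.p6. Capitals mark matches on either strand to the CCAAT box (CCAAT, or ATTGG on the other strand), to the cell cycle homology region bound by MuvB (TTTGAA or TTCGAA) or to an E2F site (TTCGCGC or TTGGCGC). Matches of different motifs were allowed to overlap.
Pcna, minus strand of chr2:132253131-132253430: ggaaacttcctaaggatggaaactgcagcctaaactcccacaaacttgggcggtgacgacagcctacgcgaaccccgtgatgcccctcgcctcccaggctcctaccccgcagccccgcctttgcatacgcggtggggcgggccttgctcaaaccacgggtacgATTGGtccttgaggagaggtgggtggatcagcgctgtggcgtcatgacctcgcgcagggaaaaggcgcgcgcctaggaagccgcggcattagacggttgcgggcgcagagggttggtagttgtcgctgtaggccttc
Mki67, minus strand of chr7:135716330-135716629: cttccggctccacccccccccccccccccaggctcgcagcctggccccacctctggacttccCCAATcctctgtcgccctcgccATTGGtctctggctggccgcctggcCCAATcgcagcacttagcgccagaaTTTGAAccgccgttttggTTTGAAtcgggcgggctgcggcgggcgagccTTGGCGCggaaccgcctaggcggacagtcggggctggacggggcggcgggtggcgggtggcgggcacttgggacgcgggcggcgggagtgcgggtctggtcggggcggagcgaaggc
Mcm2, minus strand of chr6:88898731-88899030: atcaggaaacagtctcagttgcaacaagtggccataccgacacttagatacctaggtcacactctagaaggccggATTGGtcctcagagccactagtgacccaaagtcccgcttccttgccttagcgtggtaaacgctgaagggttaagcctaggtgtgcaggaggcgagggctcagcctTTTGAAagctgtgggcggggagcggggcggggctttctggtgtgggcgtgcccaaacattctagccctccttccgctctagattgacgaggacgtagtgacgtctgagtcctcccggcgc
Cenpf, minus strand of chr1:189688037-189688336: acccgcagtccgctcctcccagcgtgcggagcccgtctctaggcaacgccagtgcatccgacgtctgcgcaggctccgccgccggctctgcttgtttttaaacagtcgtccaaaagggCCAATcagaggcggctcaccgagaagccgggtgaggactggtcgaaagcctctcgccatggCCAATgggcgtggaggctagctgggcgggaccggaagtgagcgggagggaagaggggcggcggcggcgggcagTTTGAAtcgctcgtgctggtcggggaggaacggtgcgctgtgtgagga

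The Mki67 window held 3 CCAAT boxes, 2 cell cycle homology regions and 1 E2F match, whereas the Pcna window held a single CCAAT box and no match to either of the other elements. The Cenpf window held 2 CCAAT boxes and 1 homology region, which lay at bases 3 to 8 of the gene, and Mcm2 held 1 of each. A promoter window was found for 34 of the 40 members, 38 windows in all because 4 genes had a second start. The homology region was present in 19 of 23 mitosis windows (82.6%) and in 2 of 15 S-phase windows (13.3%), against 19.2% of all 32851 windows. E2F matches were present in 6 of 15 S-phase windows and in 5 of 23 mitosis windows (21.7%), against 3.89% of all windows. CCAAT boxes were in 81.6% of member windows and 37.4% of all windows. A match describes letters in the window and does not show that a factor was bound. The windows of Ect2 overlap each other, as do those of Prc1, so matches in their shared sequence are counted more than once among the mitosis windows.

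Each library held between 63495457 and 71203640 counts, of which 8 acinar marker genes alone held between 21027274 and 23520676. Crhr1, which encodes the deleted receptor, had a count of 0 in all 4 libraries, which leaves the genotypes unchecked by their own target at this depth. Levels are CPM, counts brought to a common library size, with sizes scaled by the trimmed mean of M values. The scaled size was 62501291 and 65464931 in the CRFR1-KO libraries and 82667347 and 65449330 in the WT libraries, so equal counts mean a lower level in WT 1. The detection floor, set at 3 counts, lay at 0.048 and 0.0458 CPM in CRFR1-KO and at 0.0363 and 0.0458 CPM in WT. WT 1 stood apart from the other 3 libraries in the mitosis genes, as described next, and the fold changes are given with and without it. In bulk tissue, fewer dividing cells and less RNA per dividing cell cannot be told apart.

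By summed level the libraries were ordered with WT 1 highest, WT 2 lowest and CRFR1-KO between them, and not by genotype. Summed over the 40 members, the level was 36.6 and 38.5 CPM in the CRFR1-KO libraries, against 67.1 CPM in WT 1 and 26.3 CPM in WT 2. The average was 37.5 ± 1.3 CPM in CRFR1-KO and 46.7 ± 28.8 CPM in WT (SD, n = 2 libraries each), so the gap between the genotypes was smaller than the spread within WT. Of the 40 members, 34 had their highest level in WT 1, as did 26.1% of all tested genes. For 25 both CRFR1-KO libraries lay at or between the 2 WT libraries, ties at 0 included. The share of all genes with that order was not computed, so the 25 are not read as a property of the members.

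The mitosis members carried most of this spread. Their summed counts were 389 in CRFR1-KO 1 and 646 in CRFR1-KO 2, against 2404 in WT 1 and 228 in WT 2. On the CPM scale WT 1 was 8.35-fold above WT 2 for the mitosis members and 1.66-fold for the S-phase members. All 25 mitosis members were highest in WT 1, as were 9 of the 15 S-phase members. A count of 0 occurred for 8 mitosis members in CRFR1-KO 1 and for 9 in WT 2, and for none in CRFR1-KO 2 or WT 1.

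**Figure D1:**
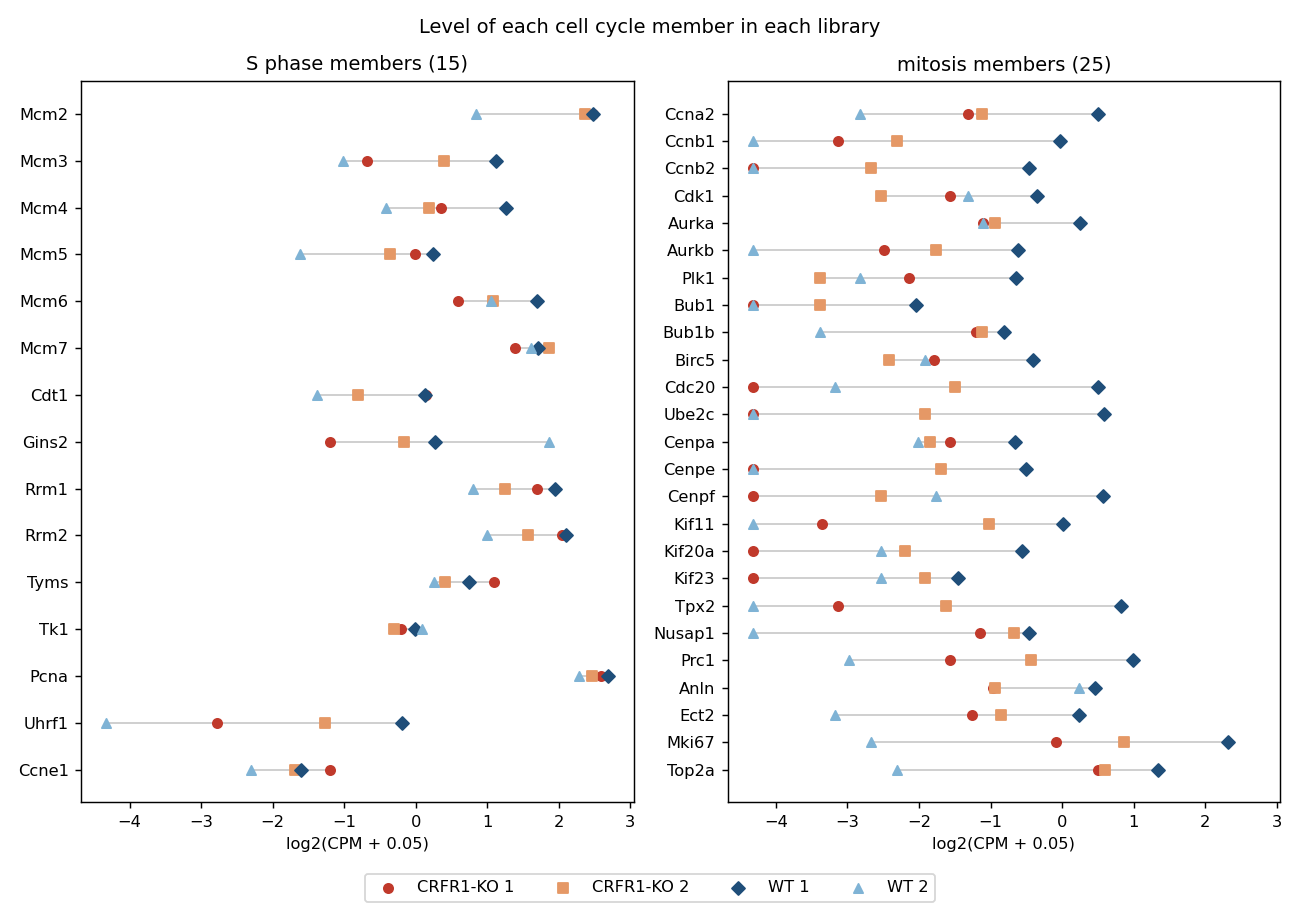
Level of each of the 15 S-phase members and 25 mitosis members, as log2(CPM + 0.05) on the horizontal axis, with 1 point per library (CRFR1-KO 1, CRFR1-KO 2, WT 1, WT 2) and a grey line over the range. All 25 mitosis members have their rightmost point in WT 1, and members with a count of 0 sit at the left edge.

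The helicase genes encode the ring that is loaded onto origins and unwinds DNA. Mcm2 (ENSMUSG00000002870), a subunit of the ring, had 345 and 335 counts in CRFR1-KO and 458 and 114 in WT, or 5.32 ± 0.285 CPM in CRFR1-KO and 3.64 ± 2.69 CPM in WT (SD, n = 2 libraries each). Both CRFR1-KO libraries thus lay near WT 1 and only WT 2 was low. The fitted log2 fold change of Mcm2 was 0.54 (SE 0.47). Mcm3, Mcm4 and Mcm5, further subunits of the same ring, showed the same order, each highest in WT 1 and lowest in WT 2. Mcm5, for example, had 59 and 48 counts in CRFR1-KO and 94 and 18 in WT. Mcm6 and Mcm7 were lowest in CRFR1-KO 1, with 91 and 160 counts there. The Mcm7 exons also contain the microRNA genes Mir25 and Mir93, and their reads cannot be separated from those of Mcm7. Cdt1, the factor that loads the ring, had 66 and 34 counts in CRFR1-KO and 86 and 22 in WT.

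Gins2, which encodes a subunit of the active helicase, departed from most replication genes. It had 24 and 55 counts in CRFR1-KO and 96 and 234 in WT, or 0.612 ± 0.323 CPM in CRFR1-KO and 2.37 ± 1.71 CPM in WT (SD, n = 2 libraries each). The genotypes did not overlap, and the highest library was WT 2, where most members were lowest. The log2 fold change was -1.94 (SE 0.64), with an edgeR p of 0.0185 before adjustment over all genes and 0.948 after it, so it did not pass. Gins2 (ENSMUSG00000031821, chromosome 8) overlaps exons of Gse1 on the other strand, and the strand setting of the counting is not given in the sources used here. Gse1 itself was lowest in WT 2, with 430 and 425 counts in CRFR1-KO and 580 and 303 in WT.

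The nucleotide supply genes had log2 fold changes between -0.30 and 0.28, each smaller than its SE. Rrm2 (ENSMUSG00000020649), the regulated subunit of ribonucleotide reductase, had 256 and 192 counts in CRFR1-KO and 352 and 127 in WT, or 3.51 ± 0.82 CPM in CRFR1-KO and 3.10 ± 1.64 CPM in WT (SD, n = 2 libraries each). Its log2 fold change of 0.18 was below its SE of 0.40, and scaling on library totals turned it to -0.03. Rrm1, the large subunit, stood at 2.75 ± 0.61 CPM in CRFR1-KO and 2.76 ± 1.504 CPM in WT. Tyms, which makes thymidylate, had 131 and 84 counts in CRFR1-KO and 134 and 75 in WT, and was highest in CRFR1-KO 1 on the CPM scale. Tk1, the salvage enzyme for thymidine, had 51 and 50 counts in CRFR1-KO and 78 and 66 in WT, without overlap on the CPM scale, at a log2 fold change of -0.30 (SE 0.45).

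Pcna (ENSMUSG00000027342), the sliding clamp that holds polymerases on DNA, lay close together in all 4 libraries. It had 372 and 358 counts in CRFR1-KO and 531 and 315 in WT, or 5.71 ± 0.34 CPM in CRFR1-KO and 5.62 ± 1.14 CPM in WT (SD, n = 2 libraries each). Its log2 fold change came to 0.02 (SE 0.22), and to -0.13 on library totals. Per kilobase of annotated exon Pcna also had the highest level of the set, at 2.36 CPM per kb, followed by Rrm2 at 1.19, while no mitosis member exceeded Aurka at 0.241 CPM per kb. Pcna also serves DNA repair, so its use is not confined to S phase. Uhrf1, which recruits the maintenance methyltransferase to copied DNA, had 6 and 24 counts in CRFR1-KO and 68 and 0 in WT. Ccne1, the cyclin of the G1/S transition, stayed under 25 counts in all libraries.

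**Figure D2:**
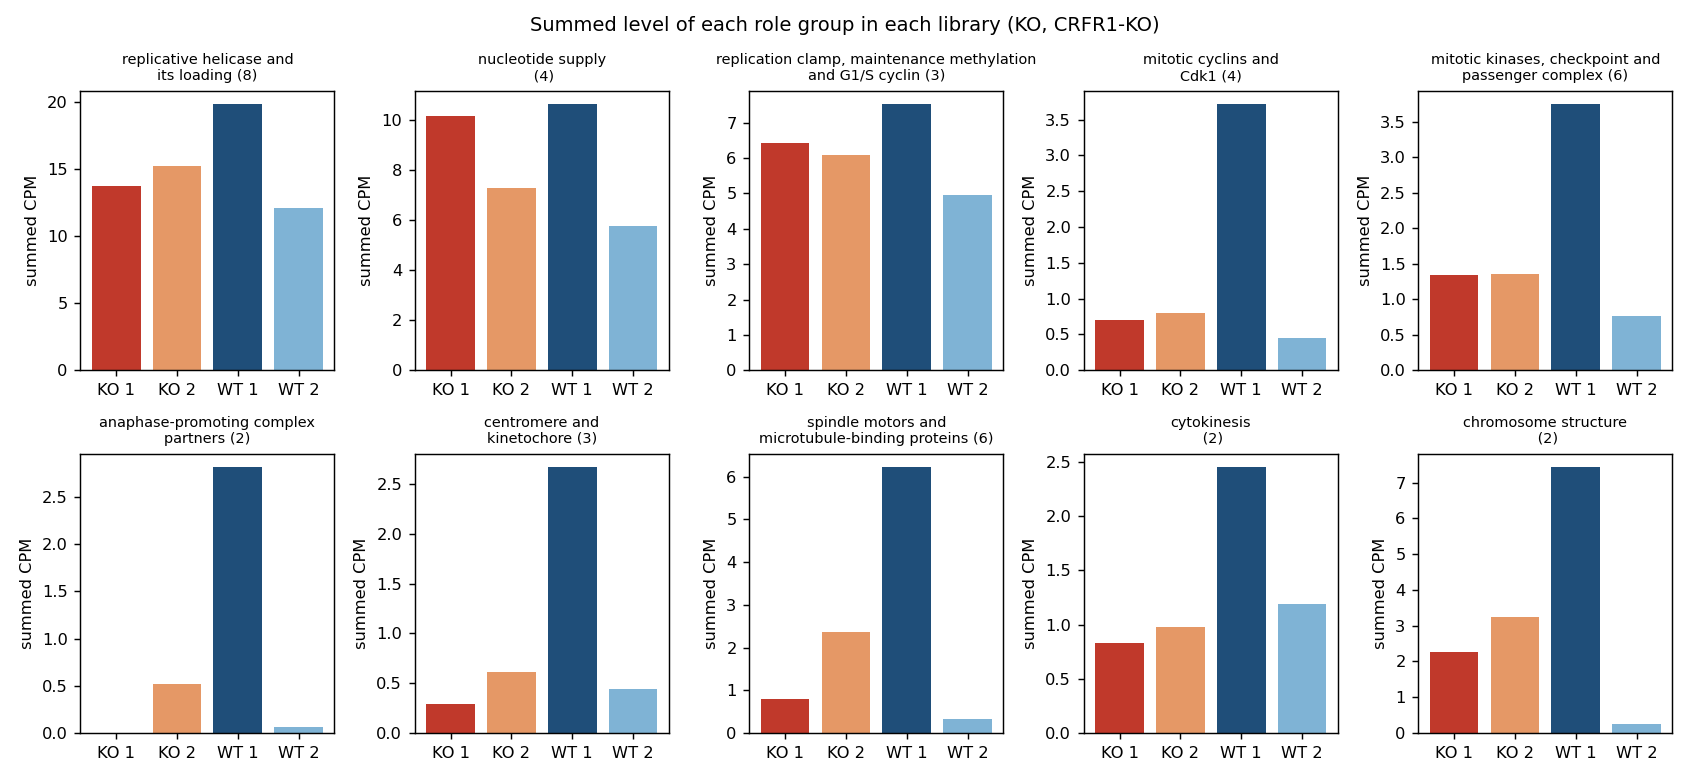
Summed CPM of each of the 10 role groups, 1 bar per library (KO is CRFR1-KO), with the number of genes in brackets and each vertical axis starting at 0. WT 1 has the highest bar in every panel, and WT 2 the lowest except for the anaphase-promoting complex partners, the centromere and kinetochore genes and the cytokinesis genes, where CRFR1-KO 1 is lowest.

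Transcripts of the mitotic engine were scarce outside WT 1. Ccna2 (ENSMUSG00000027715), the cyclin of S phase and mitotic entry, had 22 and 27 counts in CRFR1-KO and 113 and 6 in WT. That gave 0.382 ± 0.043 CPM in CRFR1-KO and 0.729 ± 0.902 CPM in WT (SD, n = 2 libraries each) and a log2 fold change of -0.94 (SE 1.07). Ccnb1, which drives entry into mitosis, had 4 and 10 counts in CRFR1-KO and 77 and 0 in WT. Its relative Ccnb2 had 0 and 7 in CRFR1-KO and 56 and 0 in WT, and was among the members too low to be tested. Cdk1, the kinase that these cyclins activate, had 18 and 8 counts in CRFR1-KO and 61 and 23 in WT, without overlap, at a log2 fold change of -1.41 (SE 0.84).

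WT 1 was again the highest library for the kinases, the checkpoint genes and Birc5. Aurka (ENSMUSG00000027496), the centrosomal Aurora kinase, had 26 and 31 counts in CRFR1-KO and 94 and 27 in WT, or 0.445 ± 0.041 CPM in CRFR1-KO and 0.775 ± 0.512 CPM in WT (SD, n = 2 libraries each). WT 2 lay close to both CRFR1-KO libraries and WT 1 above all of them, and the log2 fold change was -0.80 (SE 0.68). Aurkb, the kinase of the chromosomal passenger complex, had 8 and 16 counts in CRFR1-KO and 50 and 0 in WT, and its partner Birc5 (survivin) had 15 and 9 in CRFR1-KO and 58 and 14 in WT. Plk1, a kinase of mitotic entry and exit, had 11 and 3 in CRFR1-KO and 49 and 6 in WT. The spindle checkpoint genes divided in level. Bub1b had 24 and 27 counts in CRFR1-KO and 43 and 3 in WT, while Bub1 had 0 and 3 in CRFR1-KO and 16 and 0 in WT and was not tested.

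Cdc20 and Ube2c, the activator and the ubiquitin-conjugating enzyme of the anaphase-promoting complex, were detected mainly in WT 1. Cdc20 (ENSMUSG00000006398) had 0 and 20 counts in CRFR1-KO and 113 and 4 in WT, at a log2 fold change of -2.21 (SE 1.66). Ube2c had 0 and 14 in CRFR1-KO and 120 and 0 in WT. Neither separated the genotypes.

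At the centromere, Cenpf (ENSMUSG00000026605), a large kinetochore protein of late G2 and mitosis, had 0 and 8 counts in CRFR1-KO and 119 and 16 in WT. This was 0.0611 ± 0.0864 CPM in CRFR1-KO and 0.842 ± 0.845 CPM in WT (SD, n = 2 libraries each). The genotypes did not overlap, though the WT libraries differed from each other more than WT 2 differed from CRFR1-KO 2. The log2 fold change was -3.74 (SE 1.40), with an edgeR p of 0.0315 before adjustment over all genes and 0.9999 after it. Cenpf passed the filter on low counts only through WT, where it was higher, which limits what its p and lack of overlap can show. Cenpe, a kinetochore motor, had 0 and 17 counts in CRFR1-KO and 54 and 0 in WT. Cenpa, the centromeric histone, had 18 and 15 in CRFR1-KO and 48 and 13 in WT.

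Of the spindle motors and microtubule-binding proteins, Kif20a and Kif23 were at 0 in CRFR1-KO 1, and Kif11, Tpx2 and Nusap1 in WT 2. Prc1 (ENSMUSG00000038943), which bundles the microtubules of the central spindle, had 18 and 45 counts in CRFR1-KO and 160 and 5 in WT, at a log2 fold change of -1.05 (SE 1.18). Tpx2, the activator of Aurora A, had 4 and 18 in CRFR1-KO and 142 and 0 in WT. Kif11, the motor that pushes the spindle poles apart, had 3 and 29 in CRFR1-KO and 79 and 0 in WT. These 3 genes had CRFR1-KO 2 above CRFR1-KO 1, as did Nusap1, Kif20a and Kif23. Nusap1, a spindle-associated protein, had 25 and 38 counts in CRFR1-KO and 56 and 0 in WT. The cytokinetic motors Kif20a and Kif23 had 0 and 11, and 0 and 14, in CRFR1-KO, against 52 and 8, and 26 and 8, in WT.

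Of the cytokinesis genes, Anln separated the genotypes. Anln (ENSMUSG00000036777), which encodes the actin-binding protein anillin of the cleavage furrow, had 29 and 31 counts in CRFR1-KO and 110 and 74 in WT. The levels were 0.469 ± 0.007 CPM in CRFR1-KO and 1.23 ± 0.14 CPM in WT (SD, n = 2 libraries each), and WT 2 was not low here. The log2 fold change was -1.39 (SE 0.47), with an edgeR p of 0.0212 before adjustment over all genes and 0.968 after it. Ect2, the RhoA activator that positions the furrow, kept the order of the other mitosis genes, with 23 and 33 counts in CRFR1-KO and 93 and 4 in WT.

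Mki67 (ENSMUSG00000031004), the antigen used to count dividing cells and a coat of mitotic chromosomes, had 56 and 116 counts in CRFR1-KO and 410 and 7 in WT. Its level was 1.33 ± 0.62 CPM in CRFR1-KO and 2.53 ± 3.43 CPM in WT (SD, n = 2 libraries each), and the log2 fold change was -0.93 (SE 1.20). The sign differed between methods, at 0.47 in limma-voom, which averages logarithms, and 0.31 in edgeR with a replicate block. What turned it was not tested. Top2a, the topoisomerase that untangles copied chromosomes, had 85 and 96 counts in CRFR1-KO and 205 and 10 in WT, and its log2 fold change was 0.09 (SE 0.96). Both CRFR1-KO libraries thus lay well above WT 2 and below WT 1 for each gene.

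CRFR1-KO was compared with WT in edgeR's quasi-likelihood test over the 15131 genes that passed the filter on low counts, which 38 of the 40 members did (Ccnb2 and Bub1 did not). Of the 38, 0 passed a Benjamini-Hochberg adjusted p of 0.05, against 0.0264% of all tested genes. The smallest adjusted p of a member was 0.948. The DESeq2 Wald test also called 0 members, and 59 of the 17733 genes to which it gave an adjusted p. Its unadjusted p was under 0.05 for 3 of 40 members and for 728 of the 22540 genes it fitted. Limma-voom called 0 members and 0% of all tested genes. Its unadjusted p was under 0.05 for 1 of 38 members and for 692 of 15131 genes. At an unadjusted edgeR p under 0.05 stood 3 members, Gins2, Anln and Cenpf, all lower in CRFR1-KO (background 3.15% for that direction). Cenpf, with 0 and 8 counts in CRFR1-KO, passed the filter only through WT, where it was higher, so its place in these counts is no support. Both CRFR1-KO libraries lay below both WT libraries for 5 of the 38 tested members, Gins2, Tk1, Cdk1, Cenpf and Anln (background 16.9%), and above both for 0 (background 16.6%). The count of 5 of 38 is near the share of all tested genes and was not read as a property of the members. An exact permutation test of a single value was not run, since its smallest two-sided p with 2 libraries a genotype is 0.33.

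With all 4 libraries the fitted log2 fold change was below 0 for 28 of 38 tested members and 50.8% of all tested genes, and its median was -0.76 over the members and -0.01 over all tested genes. The S-phase members had a median of -0.01 (8 of 15 below 0) and the mitosis members one of -1.05 (20 of 23 below 0). Both medians turned positive without WT 1. In that fit, 9 of 36 fitted members were below 0 and the median was 0.96, with 0.72 over the S-phase members and 2.04 over 21 mitosis members. The mitosis median was 1.502 when the 5 mitosis members at 0 in WT 2 were set to their bounds. The mitosis values without WT 1 leave out 4 members at 0 in WT 2 and low in CRFR1-KO, so the filter itself favoured members higher in CRFR1-KO, whereas all 15 S-phase members were fitted. Without WT 2, 38 of 40 were below 0 and the median was -1.43. All 40 were kept in that fit, but Ccnb2, Bub1 and Cenpf passed its filter only through WT 1, where they were highest. The fits without a CRFR1-KO library also kept all 40, again some only through WT. Of the members fitted both with all libraries and without WT 1, 17 of 36 changed sign, all from lower to higher in CRFR1-KO. Uhrf1, Aurkb, Cenpe, Kif11 and Tpx2 are among the 17. Being at 0 in WT 2, they passed the filter without WT 1 only through CRFR1-KO. So did Nusap1, which was fitted higher in CRFR1-KO both with all libraries and without WT 1. Nusap1 is among the members counted below as higher at an unadjusted p under 0.05 without WT 1, and is no support there. No member passed the adjusted threshold in edgeR in any fit that left out a library, in which the remaining library of a group is assumed to vary like the other group. At an unadjusted p under 0.05 there were 6 members without WT 1, 1 lower and 5 higher (background 4.07% and 4.61%), and 11 without WT 2, all lower (background 4.29% lower and 3.05% higher). There were 0 without CRFR1-KO 1 (background 2.2% lower and 0.953% higher) and 4 without CRFR1-KO 2, all lower (background 2.54% lower and 0.773% higher).

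**Figure D3:**
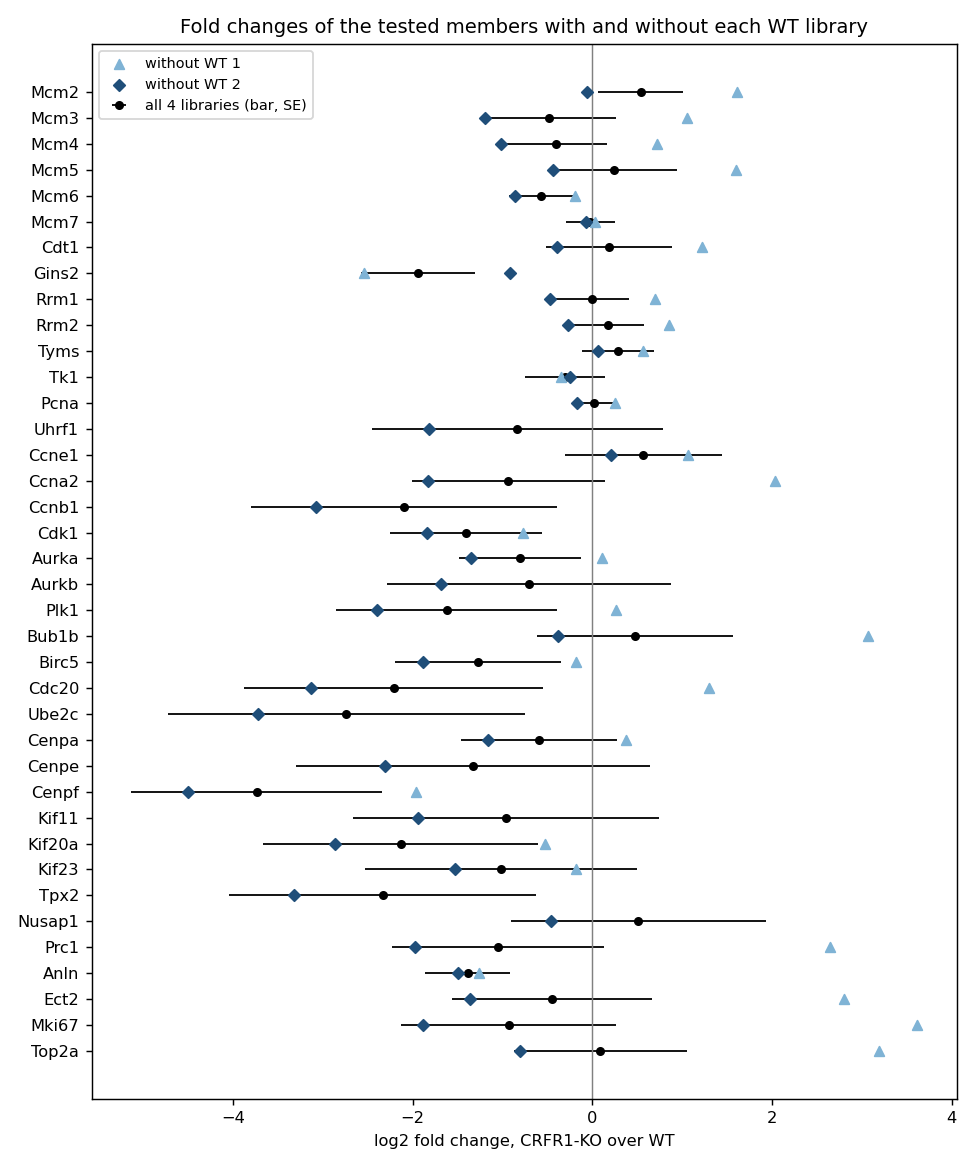
Log2 fold change (CRFR1-KO over WT, horizontal axis) of the 38 tested members with all 4 libraries (black, with SE), without WT 1 (light triangles) and without WT 2 (dark diamonds). Most triangles lie right of 0 and all diamonds but those of Tyms and Ccne1 left of it, and members at 0 in WT 2 or not fitted without WT 1 have no triangle.

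Of the 40 members, 10 had a count of 0 in WT 2, and without WT 1 these could pass the filter only through CRFR1-KO. The 6 that passed were Uhrf1, Aurkb, Cenpe, Kif11, Tpx2 and Nusap1, while Ccnb1, Ccnb2, Bub1 and Ube2c, lower in CRFR1-KO, were not fitted. Against a floor of 3 counts in WT 2, the mean of the CRFR1-KO libraries was at least 10.7-fold higher for Nusap1 and at least 4.06-fold higher for Aurkb. For the others CRFR1-KO 2 held most of the counts. CRFR1-KO 1 had 6 counts of Uhrf1, 3 of Kif11, 4 of Tpx2 and 0 of Cenpe. CRFR1-KO 2 had 24, 29, 18 and 17 counts of the same genes. WT 1 was higher than the CRFR1-KO mean for all 6, so these values describe WT 2 and not WT as a group.

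The median shift of the members between the libraries of one genotype was larger in WT. The median log2 ratio of WT 1 to WT 2, on CPM plus 0.5, was 1.03 over the 38 tested members and 0.01 over all tested genes. Between CRFR1-KO 1 and CRFR1-KO 2 it was -0.15 over the members and 0.00 over all genes. That value joins opposite shifts, 0.11 over the S-phase members and -0.25 over the mitosis members. The summed mitosis level was 1.59-fold higher in CRFR1-KO 2 than in CRFR1-KO 1. WT 1 was the highest library for 84.2% of tested members and 26.1% of all tested genes, and WT 2 the lowest for 63.2% and 28.1%. Only Gins2, at -1.29, and Tk1, at -0.06, had a WT 1 to WT 2 ratio below 0 among the members tested. Members with few counts have a ratio drawn towards 0 by the added 0.5 CPM.

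**Figure D4:**
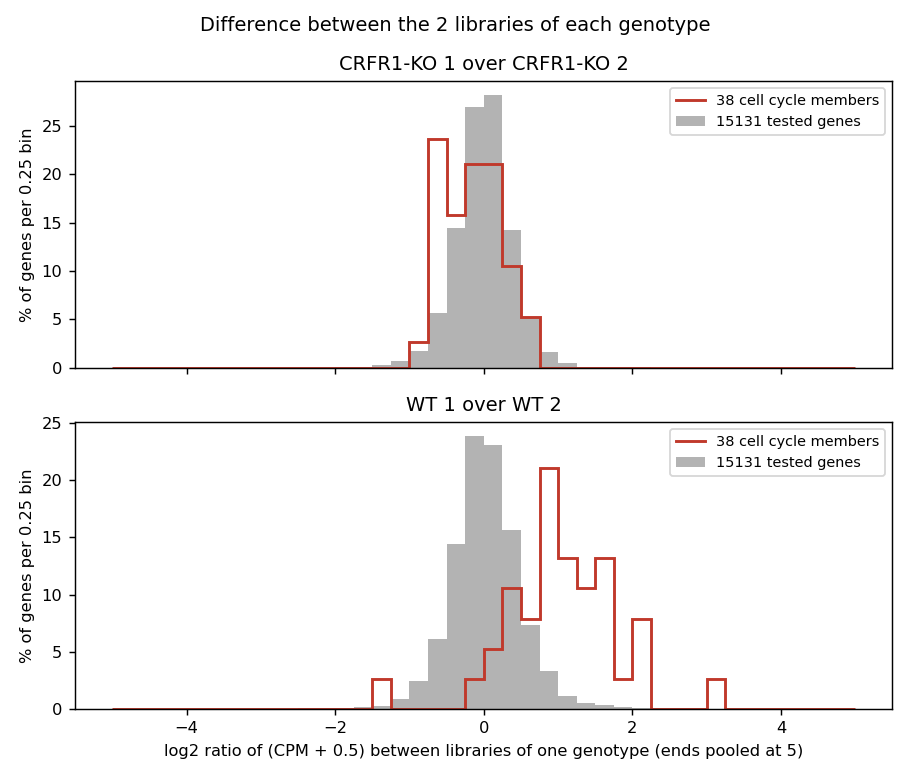
Log2 ratio of (CPM + 0.5) between the 2 libraries of CRFR1-KO (top) and of WT (bottom) on the horizontal axis, and the percentage of genes per bin on the vertical axis, for the 38 tested members (red outline) and 15131 tested genes (grey), with ratios beyond 5 pooled in the end bins. The members lie near the bulk of genes in CRFR1-KO, while in WT they lie to the right, with a median of 1.03.

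Cell cycle genes outside the set were taken from 5 lists. The other mitosis genes followed the same order, with a summed level of 15.6 and 18.1 CPM in CRFR1-KO and 36.2 and 10.01 CPM in WT, and WT 1 was the highest library for 19 of 23 tested. Smc4, a condensin subunit, had 233 and 235 counts in CRFR1-KO and 509 and 135 in WT. Pttg1 (securin) ran otherwise, with 122 and 172 counts in CRFR1-KO and 112 and 83 in WT, at a log2 fold change of 0.80 (SE 0.33, edgeR adjusted p = 0.9999). Of the 26 tested among the other replication genes, 14 were fitted higher and 12 lower in CRFR1-KO and 0 passed. Fen1, the flap nuclease, stood at 3.84 ± 0.57 CPM in CRFR1-KO and 3.68 ± 0.70 CPM in WT, and Rfc5, a clamp loader subunit, at 3.35 ± 1.49 CPM in CRFR1-KO and 2.75 ± 0.14 CPM in WT (SD, n = 2 libraries each).

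Among upstream regulators, Cdk4 had 4.97 CPM per kb over the 4 libraries, above Pcna at 2.36, and Ccnd2 had 2.34. Ccnd2, a D-type cyclin, stood at 21.7 ± 3.4 CPM in CRFR1-KO and 22.3 ± 7.8 CPM in WT, and its kinase Cdk4 at 15.9 ± 0.06 CPM in CRFR1-KO and 16.4 ± 1.15 CPM in WT (SD, n = 2 libraries each). Tfdp2, the dimer partner of E2F factors, had a log2 fold change of 0.25 (SE 0.25), and the pocket protein gene Rbl2 (p130) of 0.15 (SE 0.22). Among 17 tested E2F, pocket protein and MuvB genes 12 were fitted higher and 5 lower, and among 7 G1 cyclins and kinases 2 were higher and 5 lower, with 0 past the adjusted edgeR threshold in either list.

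Of the inhibitors of cyclin-dependent kinases, Cdkn1a (p21; ENSMUSG00000023067), the p53 target that blocks CDK2, separated the genotypes. It had 74 and 223 counts in CRFR1-KO and 595 and 977 in WT, or 2.30 ± 1.57 CPM in CRFR1-KO and 11.1 ± 5.5 CPM in WT (SD, n = 2 libraries each). Both CRFR1-KO libraries, at 1.18 and 3.41 CPM, were lower than either WT library, at 7.20 and 14.9 CPM (background 16.9%). WT 2, lowest for most members, was the highest. The log2 fold change was -2.26 (SE 0.53), which did not pass in edgeR (adjusted p = 0.718) and passed in DESeq2 (adjusted p = 0.000405). Across the fits that left out a library it ranged from -3.21 to -1.64. Its relative Cdkn1b (p27) stood at 8.45 ± 1.67 CPM in CRFR1-KO and 9.01 ± 0.67 CPM in WT. The other 3 tested inhibitors, Cdkn1c, Cdkn2c and Cdkn2d, were fitted lower in CRFR1-KO and did not pass.

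**Figure D5:**
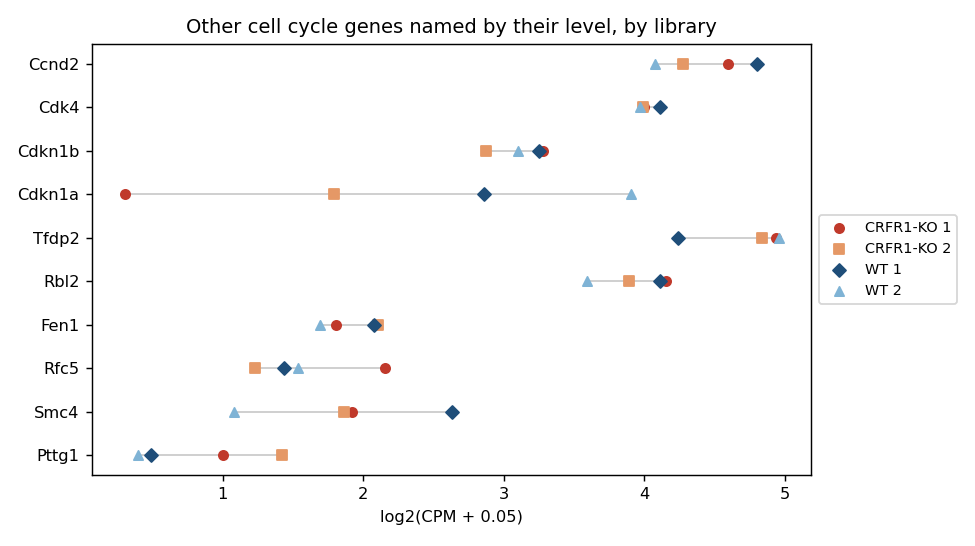
Level of the 10 genes outside the set that had the highest mean CPM in their lists, as log2(CPM + 0.05), with 1 point per library. For Cdkn1a both CRFR1-KO points (74 and 223 counts) lie left of both WT points (595 and 977), and for Pttg1 they lie right of them; for the other 8 genes the genotypes overlap.

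Marker genes of other cells also differed between the libraries, and their part in the cell cycle values was not tested. The 7 fibroblast markers summed to 153 and 166 CPM in CRFR1-KO and 474 and 219 CPM in WT. Both CRFR1-KO libraries lay below both WT libraries for 7 of 7, against 16.9% of all tested genes. The 7 macrophage markers summed to 41.9 and 67.3 CPM in CRFR1-KO and 116 and 86.1 CPM in WT, again highest in WT 1. Both CRFR1-KO libraries lay below both WT libraries for 5 of these 7, and the genotypes overlapped for 2. The 5 islet markers summed to 214 and 264 CPM in CRFR1-KO and 37.2 and 248 CPM in WT, so WT 1 held few islet transcripts. The 8 acinar markers summed to 376323 and 321199 CPM in CRFR1-KO and 272321 and 347859 CPM in WT, lowest in WT 1. The 4 erythroid markers summed to 14.2 and 39.0 CPM in CRFR1-KO and 40.3 and 13.03 CPM in WT, so CRFR1-KO 2 and WT 1 were high. The 6 T cell markers summed to 0.400 and 0.687 CPM in CRFR1-KO and 0.835 and 1.28 CPM in WT, and Cd3d was at 0 throughout. The 6 B and plasma cell markers summed to 2.75 and 2.84 CPM in CRFR1-KO and 0.0847 and 6.63 CPM in WT, with Ms4a1 and Mzb1 at 0 in every library. The 6 mast cell markers summed to 14.5 and 10.8 CPM in CRFR1-KO and 11.8 and 13.8 CPM in WT, with Cma1, Mcpt4, Tpsb2 and Ms4a2 at 0 in every library. Nearly all of that sum was Kit, which other cells also express, and Cpa3 had 33 and 4 counts in CRFR1-KO and 39 and 8 in WT. The 5 endothelial markers summed to 39.0 and 43.0 CPM in CRFR1-KO and 41.1 and 32.8 CPM in WT. The 8 duct and tumour epithelium markers summed to 230 and 211 CPM in CRFR1-KO and 270 and 229 CPM in WT. Both CRFR1-KO libraries lay below both WT libraries for 4 of these 8 and above both for 1 (background 16.9% and 16.6%), and the genotypes overlapped for 3. The 5 germinal centre B cell markers summed to 2.91 and 2.70 CPM in CRFR1-KO and 4.22 and 7.18 CPM in WT. The 2 of them that were tested were lower in CRFR1-KO without overlap.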

How the data were processed

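The authors deposited whole-number counts per Ensembl gene, not normalized. The tools named, per the submitters' processing notes, are FastQC, edgeR and DESeq2, each lacking a version and a role. Aligner, counter, strand setting and build: not given in the sources used here. A count of 4 was more frequent (913 genes in WT 1) than 3 (349) or 5 (242), so what a deposited count stands for in reads is not settled. Libraries were built by a dUTP strand-marking protocol, per the labels' protocols. Symbols and exons came from GENCODE M21, in which 2 members share exons with another model (Mcm7 and Top2a) and 10 overlap exons on the other strand. Columns were tied to libraries by the library names in the labels.

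EdgeR 4.0.16, run in R 4.3.3, fitted the counts by its two-sided quasi-likelihood F test with genotype as the sole term, after filterByExpr and scaling by trimmed mean of M values. P-values were adjusted by Benjamini-Hochberg over all 15131 tested genes. SE was derived from F. DESeq2 1.42.0, limma 3.58.1, other scalings and filters, a replicate block, summed exon-sharing models, counts divided by 4 and leaving out each library were alternatives. Statistics were given for the member with the highest mean CPM in each of 10 role groups, for any past an adjusted threshold and for those at an unadjusted p under 0.05. Outside the set the 2 genes with the highest mean CPM per list were named, with any past the adjusted threshold; others were chosen after their values were seen. 1 marker gene is not reported here. Members and lists were chosen with earlier results of these data known. No pair of libraries was a duplicate (chi-square per degree of freedom at least 43.2).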

Additional observations from a re-analysis of the deposited data

How the results depend on the processing

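No setting called a cell cycle member after adjustment. The count of called genes was 4, and 59 with the DESeq2 Wald test, 0 with limma-voom (692 at an unadjusted p under 0.05), 0 with exon-sharing models summed (701), 7 with the replicate block and between 0 and 69 when a library was left out (2 and 0 without CRFR1-KO 1 and 2, 40 and 69 without WT 1 and 2). Same-numbered libraries had deviations correlated at -0.0747 over genes, so the labels' numbers were not taken as pairs. With the replicate block the members' median was -0.13, with 22 of 38 below 0, and Mki67 turned to 0.31. It ended no member's call, since none was called, and brought Cdkn1a to an edgeR adjusted p of 0.0491, against 0.718 without it and between 0.082 and 1 when a library was left out. With the stricter filter (at least 1 CPM in 2 libraries) 13 members were left, with 8 below 0 and a median of -0.0326. With counts divided by 4, 18 were left, with 10 below 0 and a median of -0.0324; fewer members were tested in both. In limma-voom 1 member stood at an unadjusted p under 0.05 in place of 3, the median was -0.13, and Mki67 turned to 0.47. Scaling on library totals moved the median of all genes to -0.13 and turned Rrm2 (-0.029) and Pcna (-0.13).

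Leaving out a library moved the members' median between -1.43 and 0.96, the members below 0 between 9 and 38, and those at an unadjusted p under 0.05 between 0 and 11, while the count over all genes moved between 509 and 1375. The log2 ratio of summed CPM, CRFR1-KO over WT, ran from -0.37 to 0.37 for S phase and from -1.85 to 1.21 for mitosis, positive without WT 1. Rrm2 ran from -0.27 to 0.86, Pcna from -0.17 to 0.25, Mcm2 from -0.0548 to 1.61, Ccna2 from -1.83 to 2.04, Aurka from -1.35 to 0.11, Cdc20 from -8.65 to 1.30, Prc1 from -1.98 to 2.65 and Mki67 from -1.89 to 3.62. Cdc20 at its lowest is fitted against CRFR1-KO 1 at 0 and is no bound. Gins2, Cenpf and Anln had negative fold changes in all 4 such fits. Their genotypes did not overlap, so that sign was fixed in advance and adds no support. Of the 40 members, 13 and 6 had under 10 counts in CRFR1-KO 1 and 2, and 0 and 19 in WT 1 and 2, which limits their precision.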
